A study of Drosophila melanogaster with 12 samples.

Results

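The 4 peak lists described here come from chromatin immunoprecipitation and sequencing (ChIP-seq) with a polyclonal antibody against the somatic linker histone H1 in Drosophila melanogaster S2 cells, an established line of embryonic origin. They are all the H1 lists among the 12 samples of the series, of which 8 have a peak list, and they were chosen by antibody alone. In the control group, 2 libraries (replicates 1 and 2) come from wild-type S2 cells. The induced group has 2 libraries from S2 cells whose label gives wild-type BigH1 and an induction with 1 mM. Copper sulphate for 24 h is described in the same words for both groups, so whether control cells received it is not given. Growth medium is likewise described once for all cells, and lines carrying FLAG-tagged dBigH1 are said to be kept under hygromycin between experiments. The labels do not give the promoter of the construct, the number of clones, or whether libraries of equal replicate number share a culture or a day. Where nothing states separate cultures, p-values measure the spread between libraries, which may be technical. Peak lists hold no expression values, so neither the identity of the line nor the level of dBigH1 could be checked in them.

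Linker histones bind the nucleosome where DNA enters and leaves it, and favour a compact chromatin fibre. In Drosophila, H1 is made from the repeated histone gene units and is the linker histone of somatic cells. dBigH1 takes its place in the early embryo before the zygotic genome is activated, and in the germline. H1 is also known in the fly for its part in pericentric heterochromatin and in the silencing of transposable elements there. In Release 5 of the genome (dm3), the assembled pericentric sequence stands apart from the chromosome arms as the Het scaffolds, and U and Uextra hold sequence that was not placed.

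In these data the pericentric scaffolds took a larger share of the H1 peaks in both induced libraries than in either control library. Of the 129 H1 regions on them held by all 4 lists, 28.7% had higher score ranks in both induced lists and 7.75% lower. More sequence was covered in both induced lists in 30.2% of them and less in 3.1%. Split by replicate number, the shares were 24.8% and 14% for rank and 30.2% and 6.98% for covered sequence. On the chromosome arms, score ranks, the length covered in shared regions and peak spacing followed the replicate number more than the condition in the full lists, while the width of single peaks did not. Exact two-sided permutation tests of 2 libraries against 2 have 6 arrangements, of which at least 2 are as extreme as any result, so no p can reach 0.05. A difference whose libraries do not overlap has that smallest p. After Benjamini-Hochberg adjustment over the 12 measures tested, every adjusted p was 1. The comparisons below therefore rest on the values themselves, set beside the difference between replicate numbers.

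Both replicate 2 lists were the longer and had the higher median scores. The peak number was 3814 in control replicate 1, 5072 in control replicate 2, 3545 in induced replicate 1 and 5182 in induced replicate 2. Reads are not part of the lists, so depth is unknown and its part in this difference was not tested. The score is the authors' value for each peak within 1 library. Its median was 94.3 and 101 in the control lists and 92.2 and 109 in the induced lists. A score of 100 or more was reached by 46.7% and 50.7% of control peaks and by 44.2% and 54.9% of induced peaks. The highest score was 1014 and 1010 in control and 1175 and 1508 in induced cells, the last of these standing above the other 3 lists.

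The first comparison asked whether H1 scores differed at places called in every library. Peaks of the 4 lists were merged into 6653 regions where they overlapped, and 1441 of these, held by all 4 lists, are called common regions below. They held 49.7% and 39% of control peaks and 52.3% and 35.8% of induced peaks. Each region was given, per library, the percentile rank of its highest-scored peak within that list, from 0 for the lowest score to 100 for the highest. The median rank of the common regions was 65.4 in control replicate 1, 73.9 in control replicate 2, 66.5 in induced replicate 1 and 77.1 in induced replicate 2. Both replicate 2 values lay above both replicate 1 values, and the conditions overlapped. The mean was 69.6 ± 6.02 over the control and 71.8 ± 7.46 over the induced libraries (SD, n = 2), a difference of 2.2 percentile points (exact permutation p = 0.667). Replicate 2 exceeded replicate 1 by 9.54 points. With all lists cut to the same length of 3545 peaks, this order turned. The medians were then 68.5 and 69.1 in control and 71.3 and 72.9 in induced libraries, so the conditions no longer overlapped and the replicate numbers did. The difference between conditions was 3.33 points, at the smallest p the exact permutation test allows. In the full lists it was -1.75 points without control replicate 1 and -3.69 without induced replicate 2, and 6.78 and 6.79 without control replicate 2 and induced replicate 1.

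For single common regions, the induced minus control difference of mean rank had a median of 2.2 points, with the middle 50% of regions between -10.8 and 15.7. The difference by replicate number had a median of 7.09, between -4.53 and 21.5. Both induced ranks lay above both control ranks in 271 common regions (18.8%) and below them in 213 (14.8%). The split by replicate number gave 409 regions with both replicate 2 ranks higher (28.4%) and 134 with both lower (9.3%). More regions were thus separated by replicate number than by condition in the full lists. The size of the differences was similar once the median shift was removed, at a median absolute value of 13.3 points for condition and 13.2 for replicate number.

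Agreement of the ranks between libraries was moderate at best, whichever pair was taken. Over the 1441 common regions the Spearman correlation was 0.396 between the control libraries and 0.449 between the induced libraries. It was 0.371 and 0.455 between libraries of replicate 1 and of replicate 2, and 0.381 and 0.401 for the pairs that share neither label. These values are a description, since all points share 2 libraries and neighbouring regions are not independent. Covered length agreed better than rank in each pair, between 0.613 for the 2 replicate 1 libraries and 0.786 for the 2 replicate 2 libraries. The condition difference was similar in weak and strong regions. With the common regions divided by mean rank over all 4 lists into 4 equal parts, 16.1% of the weakest part and 20% of the strongest ranked higher in both induced lists, and 14.7% and 15% ranked lower.

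**Figure D1:**
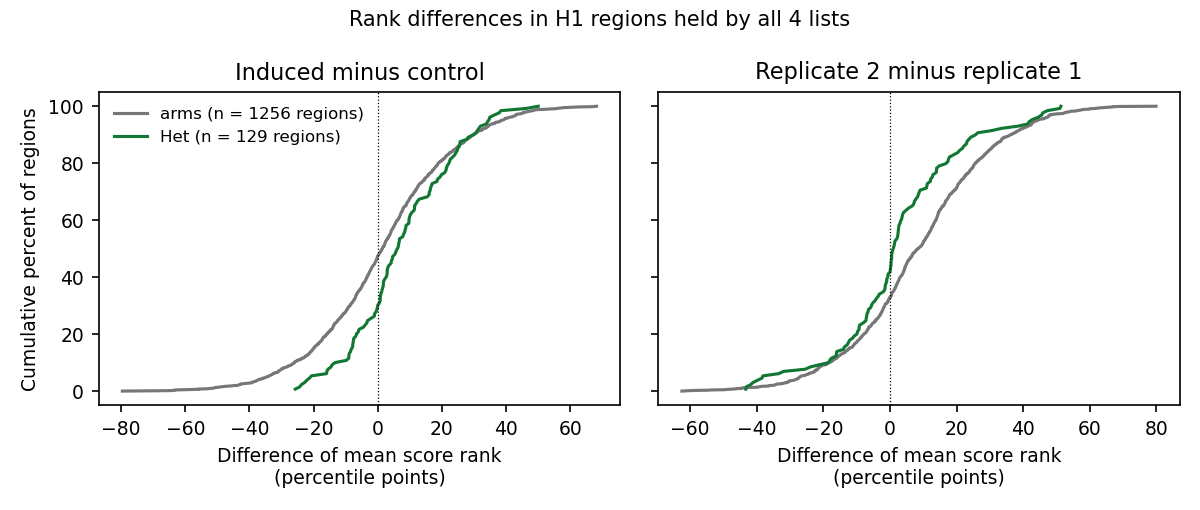
Cumulative distribution of the difference of mean score rank (percentile points) over the common H1 regions, for 1256 regions on the arms (grey) and 129 on the Het scaffolds (green); the left panel gives induced minus control and the right panel replicate 2 minus replicate 1. Over most of its length the Het curve lies to the right of the arm curve for condition (medians 6.28 and 1.4) and to its left for replicate number (medians 1.1 and 8.33).

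The pericentric scaffolds were compared with the arms next. The number of H1 peaks on Het scaffolds was 223 and 278 in the control lists and 257 and 404 in the induced lists. Replicate 2 of the induced cells was highest, and induced replicate 1 lay between the control libraries, so the counts overlap. As a share of the list they did not. Het peaks made up 5.85% (95% binomial interval 5.12 to 6.64) and 5.48% (4.87 to 6.14) of the control lists and 7.25% (6.42 to 8.15) and 7.8% (7.08 to 8.56) of the induced lists. The intervals cover counting error only. The means differed by 1.86 percentage points between conditions, with the smallest p the exact permutation test allows, and by 0.0904 between replicate numbers. Of covered length, the Het share was 4.85% and 4.45% in control and 5.92% and 6.28% in induced libraries. That difference was 1.45 percentage points by condition and -0.0242 by replicate number.

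Arms held 3506 and 4694 control peaks and 3202 and 4639 induced peaks, so these counts overlap between conditions as the Het counts do. Within each replicate number, the induced list had more Het peaks and fewer arm peaks than the control list. Lists of equal length gave Het shares of 5.84% and 5.33% in control and 7.25% and 8.29% in induced libraries. Among peaks with a score of 100 or more the shares were 6.68% and 5.53% against 8.61% and 8.83%. With each of the 4 libraries left out in turn, the difference of means stayed between 1.59 and 2.13 percentage points. Whether the abundance of these sequences in the input DNA differed between groups was not tested, since the inputs were not analysed here.

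By scaffold, 3 of the 6 Het scaffolds separated the conditions in their share of peaks. 2RHet held 2.25% and 2.07% of control and 2.68% and 2.89% of induced peaks. On 3LHet the shares were 2.39% and 2.07% against 2.85% and 2.61%. The relative difference was largest on 3RHet, at 1.02% and 1.2% against 1.55% and 2.06%. The shares on 2LHet, with 6 to 11 peaks per list, overlapped. XHet had 1 peak in each replicate 2 list and none in the others, and YHet had no peak in any list. The unplaced scaffolds went the same way, with U at 1.91% and 1.68% in control and 2% and 2.16% in induced libraries. Sequence in Het, U and Uextra is rich in repeats, and how reads with several matches were handled is not given in the sources used here.

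**Figure D2:**
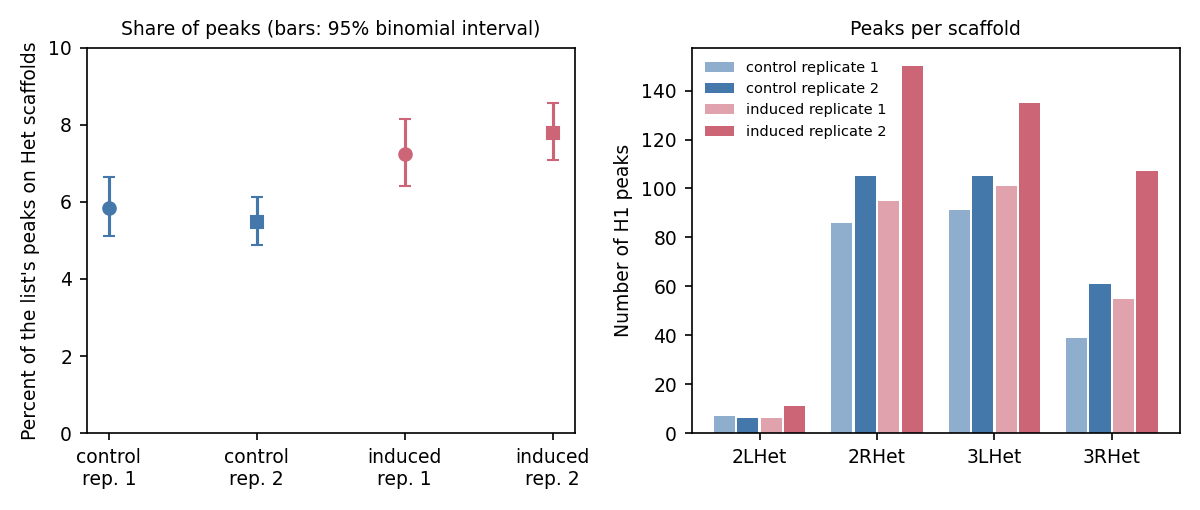
Left, percent of each H1 list's peaks on Het scaffolds with exact 95% binomial intervals; right, number of H1 peaks on 2LHet, 2RHet, 3LHet and 3RHet per library, with replicate 1 in the lighter shade. Both induced shares (7.25% and 7.8%) lie above both control shares (5.85% and 5.48%), while in counts only induced replicate 2 stands above all other lists on each scaffold.

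Scores on the Het scaffolds were examined within the common regions, of which 129 lay on Het, 1256 on arms and 56 on U or Uextra. The median rank of Het regions was 74.9 and 70.2 in the control lists and 77.3 and 84 in the induced lists, so that both induced values were higher. Arm regions had medians of 64.3 and 74.2 in control and 65.1 and 76.4 in induced lists, ordered by replicate number. The Het median minus the arm median was 10.6 and -4 points in control and 12.2 and 7.62 in induced libraries. Control replicate 2 was the only list in which Het regions ranked below arm regions. The difference between conditions was 6.6 points (exact permutation p = 0.667), and that between replicate numbers was -9.6. Without control replicate 2 the condition difference was 3.54 points, without induced replicate 1 4.87, without induced replicate 2 10.4 and without control replicate 1 13.1. These medians cover common regions only. Over all Het peaks of a list the median rank was 59.3 and 51 in control and 57.6 and 56.2 in induced lists, so the conditions overlapped. Over all peaks on U and Uextra it was 62.3 and 59.3 against 50.8 and 57.5, lower in both induced lists.

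Region by region, 37 of the 129 Het regions ranked higher in both induced lists than in both control lists (28.7%), and 10 ranked lower (7.75%). On the arms the shares were 17.8% higher and 15.9% lower, close to those of all common regions given above. The split by replicate number did not give such a lean on Het, with 32 regions higher in both replicate 2 lists (24.8%) and 18 lower (14%), against 28.7% and 8.68% on the arms. 2RHet had 16 regions higher and 2 lower of 51, 3LHet 16 and 7 of 53, and 3RHet 5 and 1 of 24. Mean ranks were higher in induced cells in 91 Het regions (70.5%) and in 660 arm regions (52.5%). No test was made of the difference between Het and arms over regions, because regions of the same 4 libraries are not replicates.

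Leaving out a library redefines the common regions and leaves 1 list on one side, so counts grow, but the lean of Het against arms can be read in each case. Without induced replicate 2, the list with the most Het peaks, 39.7% of 136 Het regions ranked higher in the induced list than in both control lists and 27.2% lower, against 27.1% and 38.8% of arm regions. Without control replicate 2 the Het shares were 48% higher and 20% lower and the arm shares 40.3% and 27.3%. Without control replicate 1 they were 47.7% and 19.5% on Het, and 31.3% and 37.4% on the arms. The omission of induced replicate 1 gave 55.6% and 15.2% against 39.6% and 26.1%. In all 4 cases the share ranked higher was larger, and the share ranked lower was smaller, on Het than on the arms. At a score of 100 or more the counts were 21 higher (33.3%) and 5 lower (7.94%) of 63 Het regions, against 18% and 15.9% of 434 arm regions.

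The strongest Het regions, chosen by their mean rank over all 4 lists, lie near the top of every list by that choice, so their ranks have little room to differ and their scores are given. Among the 5 common Het regions with the highest mean rank, 3RHet 417248 to 423883 (dm3) had scores of 612 and 660 in control and 528 and 899 in induced cells, and ranks of 99.4 to 99.8. The region 2RHet 725361 to 729859 had scores of 597 and 893 in control and 699 and 488 in induced cells. For 2RHet 564197 to 570311 the scores were 449 and 520 against 402 and 943. Scores at 3LHet 1089926 to 1093572 were 422 and 466 in control and 651 and 634 in induced cells, and this was the only one of the 5 with both induced ranks (99.7 and 99.1) above both control ranks (97.2 and 98.2). The last of the 5, 3LHet 716595 to 724913, had scores of 428 and 535 against 625 and 419. In the other 4 the conditions overlapped in rank.

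**Figure D3:**
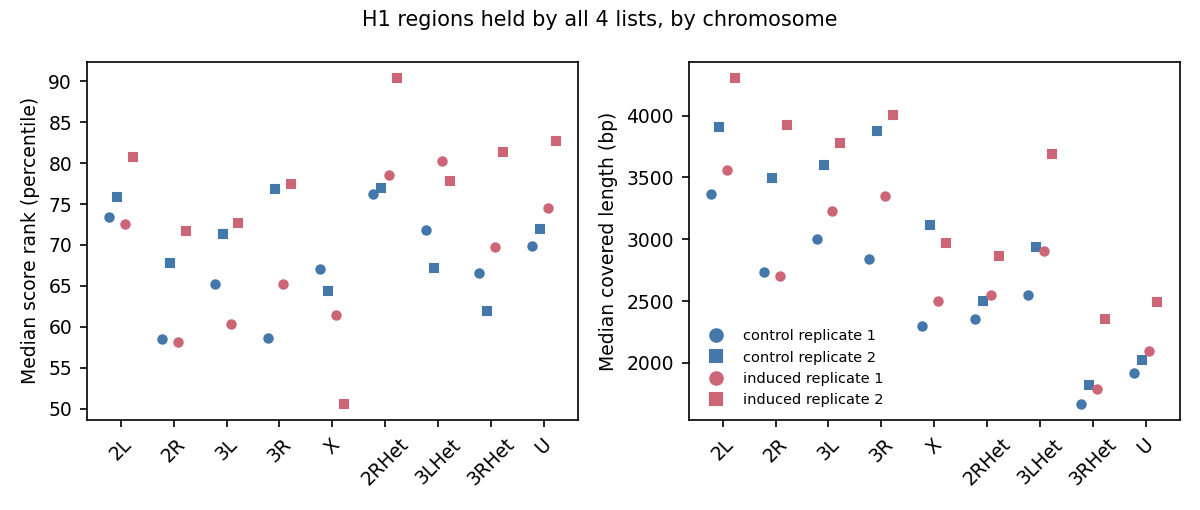
Median score rank within the list (left, percentile) and median covered length per region (right, bp) of the common H1 regions, by chromosome and library; circles are replicate 1 and squares replicate 2, blue control and red induced. On the 4 large autosome arms the squares lie above the circles in rank, whereas on 2RHet, 3LHet, 3RHet and U both red symbols lie above both blue ones; the 15 regions on X have the lowest median in induced replicate 2 (50.6).

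Among the arms, no large autosome arm showed the order seen on Het. The median difference of mean rank between conditions was 2.25 points on 2L, -0.306 on 2R, -0.732 on 3L and 3.56 on 3R. Differences by replicate number were 4.76, 8.54, 5.31 and 13.3 points on the same arms. Both induced ranks were higher in 65 and lower in 47 of the 335 common regions of 2L, and higher in 49 and lower in 63 of the 309 of 3L. On 3R the counts were 89 and 68 of 455, and on 2R 17 and 15 of 142. X had only 15 common regions, of which 3 ranked higher and 7 lower in both induced lists, and its median ranks were 67.1 and 64.4 in control against 61.4 and 50.6 in induced cells. Chromosome 4 had no common region.

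The common regions with the widest gap between conditions were spread over the arms. By rule these are the 8 with the largest mean difference in each direction among those whose ranks did not overlap, so their direction is given by the choice. The largest difference toward induced cells was at 3R 23270818 to 23275764, with scores of 65.6 and 73.2 in control and 270 and 404 in induced cells. Covered length there was 2578 and 1612 bp in control and 4205 and 4916 bp in induced libraries. A second region on the same arm, 3R 23359093 to 23364722, had scores of 64.5 and 65.9 against 350 and 220. At 2R 15655858 to 15660594 the scores were 51.1 and 81.4 against 173 and 301. The other 5 were 3L 6461628 to 6474711, 3L 18711700 to 18714957, 3L 19364703 to 19369895, 3R 24278210 to 24283159 and 3L 21635423 to 21645880, and the rank differences of all 8 ran from 57.3 to 68.2 points.

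In the other direction, 3R 22164997 to 22173126 led with scores of 154 and 444 in control and 51.9 and 58.6 in induced cells, a rank difference of -79.6 points. Its covered length was 6895 and 7028 bp in control and 2114 and 1718 bp in induced libraries. Scores at 3L 6233622 to 6239391 were 294 and 266 against 52.9 and 81.9, and at 2L 18520559 to 18524614 they were 275 and 228 against 83.2 and 53.8. For 3L 2887073 to 2893012 they were 501 and 248 against 54.3 and 144. The remaining 4 lay at 2R 11063488 to 11066417, 2L 11135928 to 11142054, 3R 2676789 to 2682232 and 3R 21537366 to 21540021, with rank differences from -63.6 to -60.6. None of the 16 lay on a Het scaffold. No gene or repeat is named for these regions, because no annotation of dm3 was used here.

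Widths were compared next. The median width of all peaks was 2148 and 2301 bp in the control lists and 2348 and 2360 bp in the induced lists. Both induced lists were thus broader than both control lists, by 129 bp on average (2225 ± 108 against 2354 ± 8.49 bp, SD, n = 2), again at the smallest p of the exact permutation test. The difference by replicate number was 82.2 bp. On the arms alone the medians were 2181 and 2346 bp in control and 2409 and 2431 bp in induced lists, again without overlap. The gap between the nearest libraries, control replicate 2 and induced replicate 1, was smaller than that between the control replicates. Without control replicate 1 the difference was 53 bp, and without control replicate 2 it was 206 bp. When lists were cut to equal length the difference was 130 bp but the libraries overlapped (p = 0.667, exact permutation test). The medians were then ordered by replicate number, at 2223 and 2694 bp in control and 2348 and 2829 bp in induced lists. Joining peaks closer than 1000 bp gave the same order (2484 and 2945 against 2754 and 3018 bp). At a score of 100 or more the conditions did not overlap (2954 and 3062 against 3166 and 3122 bp).

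Within the common regions, covered length followed the replicate number. The median was 2857 bp in control replicate 1, 3570 in control replicate 2, 3169 in induced replicate 1 and 3808 in induced replicate 2. Replicates differed by 676 bp and conditions by 275 bp (exact permutation p = 0.667). The condition difference took the opposite sign, at -62.5 bp, without control replicate 1 and at -18 bp without induced replicate 2. Both induced lists covered more of the region than both control lists in 287 common regions (19.9%) and less in 137 (9.51%). By replicate number the counts were 539 (37.4%) and 81 (5.62%).

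On the Het scaffolds the lean by condition was again clearer than on the arms. Covered length of Het regions had medians of 2314 and 2590 bp in control and 2562 and 3058 bp in induced lists. Both induced lists covered more in 39 of 129 Het regions (30.2%) and less in 4 (3.1%), against 18.7% and 10.5% of the arm regions. By replicate number the Het counts were 39 and 9 (30.2% and 6.98%), against 38% and 5.49% of the arm regions. Stronger regions were also longer, with median covered lengths in control replicate 1 of 1880 bp in the weakest of the 4 parts by rank and 4778 bp in the strongest, so these counts and those of rank are not independent. The ratio of the Het median to the arm median, on the log2 scale, was -0.353 and -0.53 in control and -0.359 and -0.384 in induced libraries. This ratio overlapped between conditions (difference 0.0702, exact permutation p = 1), and the difference was -0.065 without control replicate 2. Without induced replicate 2, 37.5% of Het regions were covered more in the induced list than in both control lists and 22.1% less, against 26.6% and 34.4% on the arms.

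Peak position could be compared only where peaks of the lists merge by overlap, which limits how far apart their centres can lie. In the 780 common regions with a single peak in each list, the median distance between peak centres was 146 bp between the control libraries and 94.2 bp between the induced ones. Distances between libraries of equal replicate number were 142 bp for replicate 1 and 75.2 bp for replicate 2. The longest median, 171 bp, was between control replicate 1 and induced replicate 2. Multiple peaks in a common region were found in 345 and 411 cases in the control lists and in 308 and 345 in the induced lists.

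The spacing of H1 peaks asked whether peaks lay closer together or farther apart after induction. The median gap from the end of a peak to the start of the next was 4.09 and 2.58 kb in control and 4.7 and 2.53 kb in induced lists. Replicate 2 lists were denser in both conditions. Conditions differed by 281 bp (exact permutation p = 1) and replicates by -1842 bp. With lists cut to equal length the 4 medians came closer, at 4455 and 4141 bp in control and 4702 and 3785 bp in induced cells, and the condition difference was -54.2 bp. Gaps under 1 kb made up 26.5% and 33.7% of control and 25% and 34.4% of induced gaps. Gaps over 50 kb made up 11.4% and 8.58% against 11.9% and 8.12%.

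Peaks closer than 10 kb were joined into domains. The number of domains was 1297 and 1306 in control and 1262 and 1340 in induced lists, nearly the same although the lists differ in length. Domains of 2 or more peaks had a median span of 14.8 and 16.8 kb in control and 16.1 and 16.5 kb in induced lists (difference 468 bp, exact permutation p = 1). Peaks covered 57.5% and 59.5% of the span of such domains in control and 57.5% and 60.6% in induced lists. The share of peaks in domains of 5 or more was 50.7% and 64.6% against 48.3% and 64.7%, a difference of -1.16 points by condition and 15.1 by replicate number. The median distance from a domain to the next was 28.8 and 29.9 kb in control and 29.9 and 28.1 kb in induced lists. In both conditions the longer replicate 2 list thus had more peaks in a similar number of domains.

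The longest domains recurred in part across conditions. Control replicate 2 had its longest at 2L 17508821 to 17837898 (329 kb, 76 peaks), and induced replicate 1 had its longest at the overlapping 2L 17605523 to 17844117 (239 kb, 48 peaks). In control replicate 1 the longest was 2L 16963744 to 17232119 (268 kb, 61 peaks). The third of induced replicate 1 started almost at the same base, at 2L 16963753, and ended at 17143455. Domains at 3R 8552986 to 8773865 in control replicate 2 and 3R 8551226 to 8773683 in induced replicate 2 had nearly the same ends, spans of 221 and 222 kb, and 44 and 45 peaks. A domain on 3R was among the 3 longest of both induced lists and of neither control list, at 6732440 to 6919296 (187 kb, 40 peaks) in replicate 1 and at 6727558 to 6973188 (246 kb, 59 peaks) in replicate 2. Cover of 3R from 6 to 7 Mb, where it lies, overlapped between conditions. Peaks covered 18.1% and 30.9% of that stretch in control and 22.1% and 34% in induced lists. The longest domain of induced replicate 2, 3R 12482392 to 12803478 (321 kb, 77 peaks), was not among the 3 longest of any other list.

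**Figure D4:**
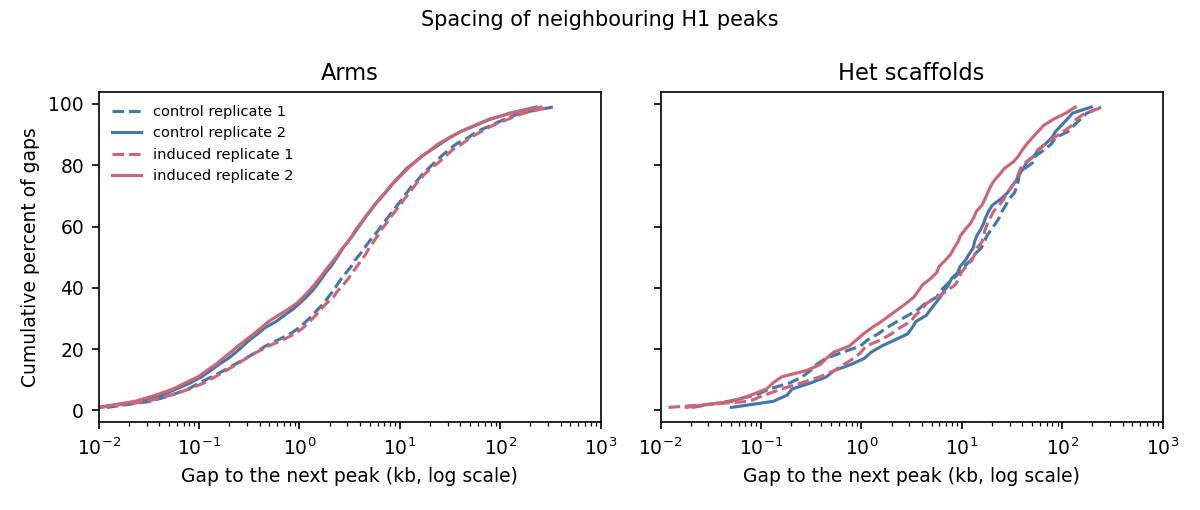
Cumulative percent of gaps between neighbouring H1 peaks against gap length (kb, log axis), on the arms (left) and the Het scaffolds (right); dashed lines are replicate 1 and solid lines replicate 2, blue control and red induced. On the arms the curves pair by replicate number (medians 3.82 and 4.36 kb for replicate 1, 2.35 and 2.32 kb for replicate 2); on Het scaffolds induced replicate 2 has the shortest median gap (7.49 kb).

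On Het scaffolds peaks lay farther apart than on the arms in every list. The median Het gap was 13 and 11 kb in control and 13 and 7.49 kb in induced lists, and the median arm gap 3.82 and 2.35 kb against 4.36 and 2.32 kb. As a log2 ratio of Het to arms, spacing was 1.77 and 2.22 in control and 1.57 and 1.69 in induced libraries. Relative to the arms, Het peaks were therefore closer together in both induced lists (difference -0.363, the smallest p of the exact permutation test), while replicate numbers differed by 0.284. The Het gap itself was 13 kb in both replicate 1 lists, where the lower induced ratio went with a wider arm gap. Only induced replicate 2 had a shorter Het gap than both control lists. Without control replicate 2 the difference was -0.138, and at a score of 100 or more the libraries overlapped (difference -0.283, exact permutation p = 0.667).

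Regions held by 1 condition alone were few. Both induced and no control list held 204 of the 6653 regions (3.07%), and both control and no induced list held 229 (3.44%). By class, the induced ones were 2.98% of the arm regions and 4.04% of the 445 Het regions, and the control ones 3.71% and 0.674%. In numbers, Het had 18 induced and 3 control regions. With 1 library left out, 1 side rests on a single list, so the induced and control counts are no longer alike. Without induced replicate 2 they were 34 induced and 26 control regions, and without control replicate 1 they were 37 and 20. They were 63 and 12 without control replicate 2, and 122 and 8 without induced replicate 1. No arm shares stand beside these counts, so the lean of Het against the arms cannot be read from them. The split by replicate number gave 37 Het regions held by replicate 2 alone (8.31% of Het, against 9.04% of the arms) and 4 by replicate 1 alone (0.899% and 1.22%). Regions in a single list showed 1 library apart from the rest. Induced replicate 2 alone held 104 Het regions (23.4% of Het, against 13.5% of the arms), while control replicate 1 alone held 9 (2.02%), control replicate 2 alone 17 (3.82%) and induced replicate 1 alone 15 (3.37%). Het regions were also more often common to all 4 lists, at 29% against 20.7% on the arms.

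Regions of 1 condition mostly lay beside peaks of the other. The median distance to the nearest peak of the opposite condition was 1.47 kb for induced and 1.68 kb for control regions. Within 10 kb of such a peak lay 87.7% and 86.5% of them, and only 6 and 5 lay 50 kb or more away. For regions of replicate 2 alone the median distance to a replicate 1 peak was 1.83 kb. Of the regions of replicate 2 alone and of replicate 1 alone, 81% and 89.7% lay within 10 kb of the other number. Within single lists, 64.6% to 74.4% of all gaps were under 10 kb. This closeness was therefore not particular to regions of 1 condition. Regions of 1 condition were also weak, with median ranks of 38.3 (induced) and 41.2 (control). Of the 5 induced Het regions with the highest mean rank, 2RHet 1899894 to 1902913 had scores of 117 and 186 and lay 0.968 kb from a control peak, and 2RHet 982070 to 985015 had scores of 86.5 and 226 at 0.088 kb. The others were 3RHet 643448 to 644697 (105 and 141), 3LHet 2519184 to 2521632 (63.5 and 236) and 3RHet 8209 to 11448 (53.9 and 197), between 3.29 and 13.5 kb from a control peak. The 3 control Het regions, 3LHet 685509 to 686581, 2LHet 38935 to 40281 and 3LHet 715124 to 716192, had scores between 56.1 and 66.5.

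At the scale of 1 Mb windows of the arms, the order of the windows by cover was similar in all libraries, while the amount covered was not. Arm totals were 9578 and 13269 kb in control and 9220 and 13653 kb in induced lists. The Spearman correlation of percent covered over 120 windows was between 0.925 and 0.984 in the 6 pairs of libraries, given as a description since the windows share libraries and only 101 of them held a peak. In 16 windows (13.3%) both induced lists covered less than both control lists, and in 0 windows (0%) more. By replicate number, both replicate 2 lists covered more in 70 windows and less in 4. Among the windows without overlap, the largest differences were at 15 to 16 Mb of 2L, with 33.9% and 23.9% of the window covered in control and 23.4% and 18.3% in induced libraries, and at 5 to 6 Mb of 3L, with 33.4% and 30.4% against 25.3% and 25.4%. Next came 2L 13 to 14 Mb (22.6% and 21.2% against 14% and 18.3%), 3L 4 to 5 Mb (23.5% and 22.2% against 15.5% and 19.5%) and 3L 3 to 4 Mb (20.6% and 21.2% against 15.7% and 15.7%). Differences of similar size in the other direction stood in windows whose lists overlapped, named here after their values were seen. The 3R window from 23 to 24 Mb had 5.89% and 24.1% covered in control and 15.8% and 27% in induced libraries. At 12 to 13 Mb of 3R the values were 9.89% and 22.5% against 16.5% and 27.7%. The 16 windows lay on 3L (6 of 25), 2L (4 of 23), X (4 of 22) and 3R (2 of 28), with 0 of 20 on 2R. Some of them had very little cover in any list. At 15 to 16 Mb of 3L it was 0.148% and 0.412% in control against 0% and 0.147% in induced libraries. For X 19 to 20 Mb the values were 0.187% and 0.183% against 0.121% and 0.127%.

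The one-sidedness of the windows depended on single libraries and on how cover was scaled. Without control replicate 2, 41 windows were higher and 22 lower in induced cells, and without induced replicate 1 48 were higher and 16 lower. Without control replicate 1 the counts were 7 and 44, and without induced replicate 2 they were 3 and 49. Induced exceeded control within both replicate numbers in 33 windows and was below it in both in 34. With lists cut to equal length, 16 windows were lower in both induced lists and 7 higher, and 13 of the original 16 were among the lower ones. As a share of each list's cover on the arms, 16 were lower and 11 higher, of which 7 were among the original 16. Windows of 0.5 Mb gave 32 lower and 9 higher.

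**Figure D5:**
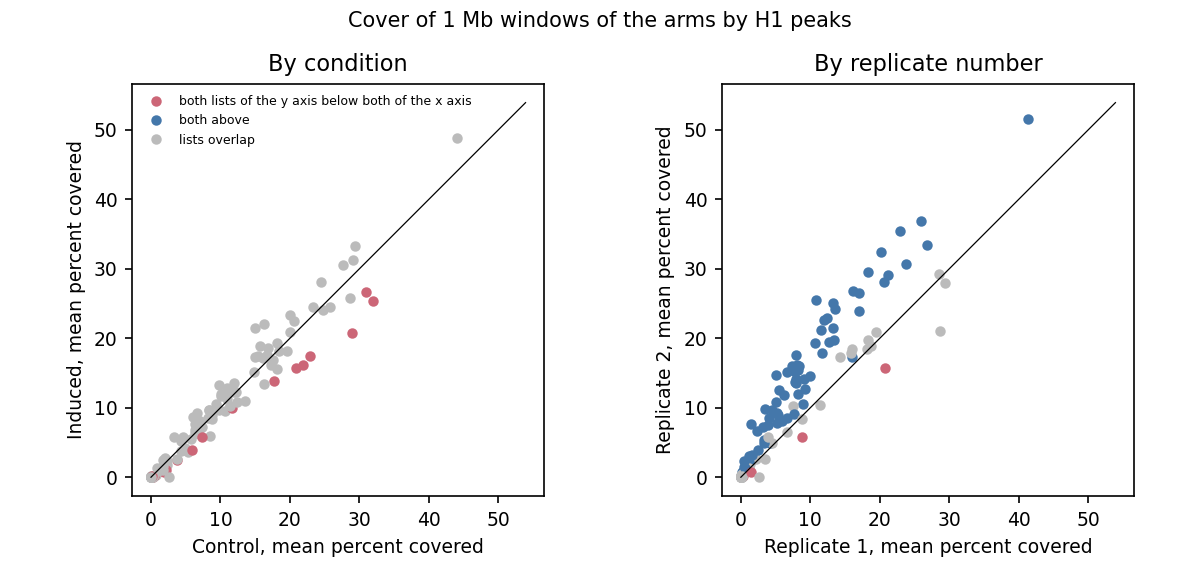
Percent of each of the 120 windows of 1 Mb on the arms that H1 peaks cover, as the mean of 2 lists on each axis: induced against control (left) and replicate 2 against replicate 1 (right). Red points are the windows in which both lists of the y axis lie below both of the x axis (16 by condition, 4 by replicate number), blue points those in which both lie above (0 and 70), and the line marks equal cover.

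Differences of neighbouring common regions were only loosely related. For pairs of neighbours under 10 kb apart the Spearman correlation of the condition difference was 0.0826 over 676 pairs, and that of the replicate difference was 0.0966. For pairs 50 kb or more apart the values were 0.0856 and 0.0571 over 357 pairs. In sparse lists such weak values describe the data and show no pattern of their own. Neighbours within 10 kb had a condition difference of the same sign in 52.5% of pairs.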

How the data were processed

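The authors deposited 1 peak list per library, with a score for each peak and no read counts. The submitters' processing notes name MACS 1.4.2, Bowtie 0.12.5 and the dm3 build. Settings, the use of inputs and the handling of repeated matches are not given in the sources used here. In this MACS version the score stands for -10 times log10 of the caller's p-value, and no score was below 50. It was used only as a rank or filter within a list. Regions, gaps, domains and windows were computed in Python 3.11.15 (SciPy 1.17.1, NumPy 2.4.6), after the code was tested on simulated lists. Peaks overlapping by 1 bp or more were merged. Coordinates are 1-based. Groups were compared by the exact two-sided permutation test over 4 libraries (6 arrangements). The last window of an arm ends at the highest peak end. The named regions follow a written rule: the 8 common regions with the largest difference in each direction whose ranks did not overlap, the 5 highest-ranked Het regions per class, the 3 longest domains per list and the 5 windows with the largest difference. The measures, lists and rules were chosen with earlier results of these data known. Alternatives were a score of 100 or more, equal list length, joining within 1000 bp, each library left out, a replicate block, 25% coverage of a region, other rank definitions, other domain gaps and window sizes, and Het with U and Uextra. The dBigH1 lists, the inputs and sequences were not used here.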

Additional observations from a re-analysis of the deposited data

How the results depend on the processing

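Depth is unknown for these lists, so a missing peak does not show missing H1. Of 195 alternative values without the replicate block, 128 kept their direction or stayed within 1.5 times the count, 50 counts moved further and 17 took the opposite sign. The Het shares of peaks and of covered length, the Het minus arms rank, the Het to arms spacing and the peak width kept their sign under every alternative run for them. Values of the opposite sign concerned measures whose libraries overlapped between conditions, and the cause was not tested. Equal list length gave -54.2 bp for spacing and 0.155 points for the share of peaks in domains of 5 or more, which was 2.51 points at a score of 100 or more. A domain gap under 5 kb gave 3 more domains in induced cells, and one under 20 kb a span difference of -208 bp. With each library left out in turn, the rank difference ranged from -3.69 to 6.79 points, width in common regions from -62.5 to 573 bp, spacing from -807 to 1369 bp, domain number from -39.5 to 38.5, domain span from -498 to 1435 bp, the share in domains of 5 or more from -9.37 to 7.05 points, and the Het to arms width from -0.065 to 0.183 (log2).

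Counts fall by construction when fewer peaks are used and grow when 1 list stands against 2; for the others the cause was not tested. A score of 100 or more gave 106 of 522 common regions higher and 76 lower in induced cells, where the full lists gave 271 and 213 of 1441. On Het the counts were 21 and 5 of 63 (33.3% and 7.94%), against 18% and 15.9% of arm regions. The same cut gave 22 Het regions wider (34.9%, against 20% of arm regions), 1 control Het region, and 3 windows higher. Equal length gave 6 of 101 common Het regions lower (5.94%, against 16.3% of arm regions) and 7 windows higher. Joining peaks gave 11 induced Het regions and 2 of 111 common Het regions narrower (1.8%, against 11.8% of arm regions). Windows of 0.5 Mb gave 9 higher and 32 lower, and cover as a share of the list 11 higher. With each library left out there were 1644 to 1968 common regions, of which 466 to 816 were higher and 434 to 677 lower. On Het, 54 to 84 of 136 to 174 were higher (39.7% to 55.6%, against 27.1% to 40.3% of arm regions). Lower ones on Het ranged from 23 to 37 (15.2% to 27.2%, against 26.1% to 38.8%). Het regions wider ranged from 51 to 104 (37.5% to 68.9%, against 26.6% to 48.8% of arm regions). Narrower ones ranged from 10 to 30 (6.62% to 22.1%, against 17.9% to 34.4%). Induced Het regions ranged from 34 to 122, control ones from 8 to 26, and windows from 3 to 48 higher and 16 to 49 lower. Window cover as a share of the list and the counts on Het alone under each setting were added after seeing the data. Ranking among common regions alone fixes their median, so it gives no overall rank difference.

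The replicate numbers share only a number in the labels; deviations of equal-numbered libraries from their group means correlated at 0.0283 over common regions. With replicate number as a block the mean differences equal those reported by construction (exact sign-flip p of 0.5 or 1). Under the block a count asks only that induced exceeds control within each number. This gave 427 of 1441 common regions higher (29.6%) and 329 lower (22.8%). On Het it gave 55 and 18 of 129 (42.6% and 14%), against 28% and 24.3% of arm regions. It also gave 60 Het regions wider and 8 narrower, and 33 windows higher and 34 lower.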

Other observations

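The large autosome arms were divided into 10 equal parts from tip to centromere end, using the highest peak end on each arm. The tenth part, nearest the centromere, held 10.2% and 9.08% of all covered length in the control lists and 10.2% and 10.4% in the induced lists. Its 153 common regions had a median rank difference of 1.47 points between conditions, with 28 regions higher and 18 lower in both induced lists. In the part before it, 14 of 106 common regions were higher and 29 lower, and in the eighth part from the tip 66 of 297 were higher and 36 lower. Over the whole of these arms, 220 of 1241 were higher (17.7%) and 193 lower (15.6%). Median rank differences in the ninth part were -0.282 points by condition and 12.3 by replicate number. In the eighth part they were 4.07 and 8.06. The part at the tip had 25 common regions, 1 higher and 2 lower. These parts were drawn up after other results were known and were not tested.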
